A study of Mus musculus with 5 samples.

Results

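Dppa2, Dppa3, Dppa4, Dppa5a, Tdgf1, Utf1, Gdf3 and L1td1 are 8 genes known from mouse oocytes, cleavage-stage embryos and pluripotent cells. They were listed by name, with earlier results of these data known, and are 8 of the 22026 gene symbols with a level in each library. The study sequenced RNA of mouse 4-cell embryos from nuclear transfer, in which a donor nucleus is placed in an oocyte that has lost its own, as 5 libraries. Per the series title, the question was whether oocyte reprogramming needs the maternal histone variant H3.3. All 5 groups are of the strain B6D2F1, and each is 1 library: embryos with a knockdown of H3.3 that were given H3.3 mRNA, embryos with the knockdown that were given H3.2 mRNA, embryos with the knockdown alone, embryos treated with luciferase, and embryos with no treatment. The labels of the H3.2 mRNA library conflict, since the treatment tag has H3.3 mRNA where the title has H3.2 mRNA. It is taken here by its title. The source name is NT for the H3.3 mRNA, knockdown and untreated libraries and SCNT for the H3.2 mRNA and luciferase libraries, which was treated as a possible batch. The sources used here give no donor cell, no number of embryos per library and no method for the knockdown. No group has a second library, so no difference below has a replicate check and no p-value is given.

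Dppa2, Dppa3, Dppa4 and Dppa5a share a name (developmental pluripotency associated) rather than a common protein family. Dppa3 is a maternal protein of the egg that shields methylated DNA from demethylation, Dppa2 and Dppa4 are partner proteins on chromatin, and Dppa5a is an RNA-binding protein. Tdgf1 is a cell-surface co-receptor and Gdf3 a secreted ligand of the Nodal branch of TGF-beta signalling, Utf1 is a chromatin-bound protein of undifferentiated cells, and L1td1 is an RNA-binding protein derived from the LINE-1 retrotransposon. In a nuclear-transfer embryo at the 4-cell stage, transcripts left from the oocyte and transcripts made by the new nucleus are present together, and a level does not separate them.

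Levels are in FPKM, which divides the fragments of a gene by its transcript length and by the library's mapped reads. A level still depends on the other genes of its library, so values of different libraries are not strictly comparable. Differences are in log2(FPKM + 1), and a gene was called higher or lower at 4-fold or more, which is 2 on that scale. The share of all genes called was taken over the 13144 genes whose mean over the 5 libraries was 1 FPKM or more, and all 8 genes passed that filter. A value of 0 in these files may be a failed estimate, so the text says that the gene is listed at 0 and gives no fold. The sequencing depth is unknown. FPKM is a share of a library, so fewer cells with a transcript and less transcript per cell cannot be told apart.

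The summed level of the 2 genes that encode H3.3, H3f3a and H3f3b, was 467 FPKM in the H3.3 mRNA library, 420 FPKM in the H3.2 mRNA library and 664 FPKM in the knockdown library, against 5734 FPKM in the luciferase library and 5266 FPKM in the untreated library. The knockdown is thus seen in the 3 libraries labelled with it, and the H3.3 mRNA library shows no higher level of these genes than the knockdown library, so both add-back libraries are named below by their labels only. Between 10 and 12 of 12 oocyte markers were above 0 in every library. Of 6 trophectoderm markers, Cdx2, Elf5 and Eomes were at 0 in all 5 libraries, and Gata3, Krt8 and Krt18 were not. Krt8 had 836 FPKM with luciferase and 184 FPKM in untreated embryos, and at most 44.8 FPKM elsewhere. Krt18 had 435 FPKM with luciferase and 290 FPKM in untreated embryos, and at most 48.7 FPKM elsewhere. Gata3 was highest with luciferase, at 27.6 FPKM. The summed FPKM of the oocyte markers was 1354 with H3.3 mRNA, 1006 with H3.2 mRNA, 1795 in the knockdown, 352 with luciferase and 5350 in the untreated library. Of 6 fibroblast markers all were at 0 outside the luciferase library, where 2 were above 0 and their sum was 6.71 FPKM. Of 10 cumulus and granulosa cell markers, 2 to 4 were above 0 in a library, and the summed level was 465, 551 and 1076 FPKM in the H3.3 mRNA, H3.2 mRNA and knockdown libraries, against 479 and 332 FPKM in the luciferase and untreated libraries. Amhr2 made up most of it outside the untreated library, at 1056 FPKM in the knockdown and 142 FPKM in the untreated library. Tnfaip6 was listed at 0 in the knockdown and was the larger part in the untreated library, at 185 FPKM. Of these, Fshr, Inhba, Has2 and Ptx3 were at 0 in all 5.

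Promoter sequences from RefSeq (GRCm38.p6, a later build than the mm9 used for the files) were at hand for 3 of the 8 genes, Tdgf1, L1td1 and Utf1. They are shown because Tdgf1 was called lower in the knockdown against luciferase with both libraries above 0, L1td1 has the value of 0 that sets the untreated library apart, and Utf1 is the gene of similar level that was called in no pair of libraries. The 250 bases before each start are given 5′ to 3′ on the gene's own strand, from chr9:110946159-110946408 (minus strand) for Tdgf1, chr4:98726504-98726753 (plus strand) for L1td1 and chr7:139943606-139943855 (plus strand) for Utf1. Capitals mark matches to GGGNGTGG, the core of the GT box bound by Krüppel-like factors, searched on both strands.
Tdgf1: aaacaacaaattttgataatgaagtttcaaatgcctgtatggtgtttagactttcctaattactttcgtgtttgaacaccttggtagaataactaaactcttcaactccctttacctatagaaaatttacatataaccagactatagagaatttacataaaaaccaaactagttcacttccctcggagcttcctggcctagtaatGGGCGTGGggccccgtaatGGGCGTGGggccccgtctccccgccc
L1td1: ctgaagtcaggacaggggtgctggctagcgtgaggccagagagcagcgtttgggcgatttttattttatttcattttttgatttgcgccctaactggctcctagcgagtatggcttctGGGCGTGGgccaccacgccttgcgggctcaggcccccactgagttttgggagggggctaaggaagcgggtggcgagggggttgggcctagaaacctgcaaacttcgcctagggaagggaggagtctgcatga
Utf1: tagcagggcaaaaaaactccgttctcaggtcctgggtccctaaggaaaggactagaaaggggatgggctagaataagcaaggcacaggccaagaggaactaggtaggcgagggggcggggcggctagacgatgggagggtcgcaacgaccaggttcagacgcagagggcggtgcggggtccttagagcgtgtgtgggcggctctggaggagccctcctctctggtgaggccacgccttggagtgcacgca
In Tdgf1 the 2 matches begin 45 and 26 bases before the start and stand in a directly repeated stretch. L1td1 has 1 match, 132 bases before the start, and Utf1 has none. Of 32851 RefSeq promoters of this length, 15.9% hold at least 1 match. The GC box GGGCGG, searched on both strands as well, occurs 4 times in Utf1, 1 time in Tdgf1 and in no place in L1td1, and 32.7% of promoters hold it. The octamer ATGCAAAT occurs in none of the 3 promoters and in 1.6% of all. CpG pairs number 7 in Tdgf1, 11 in L1td1 and 14 in Utf1, with a median of 6 over all promoters. These matches are a description of the letters and carry no measure of binding.

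The 8 genes spanned the whole range of levels. Dppa3, Dppa4, Dppa2 and Dppa5a were among the abundant transcripts of every library, with means over the 5 libraries of 11391, 2507, 1451 and 1654 FPKM. L1td1, Utf1, Tdgf1 and Gdf3 had means of 38.2, 32.7, 22.2 and 5.004 FPKM. Only Dppa2, Dppa3, Dppa4, Dppa5a and Utf1 were above 0 in all 5 libraries.

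**Figure D1:**
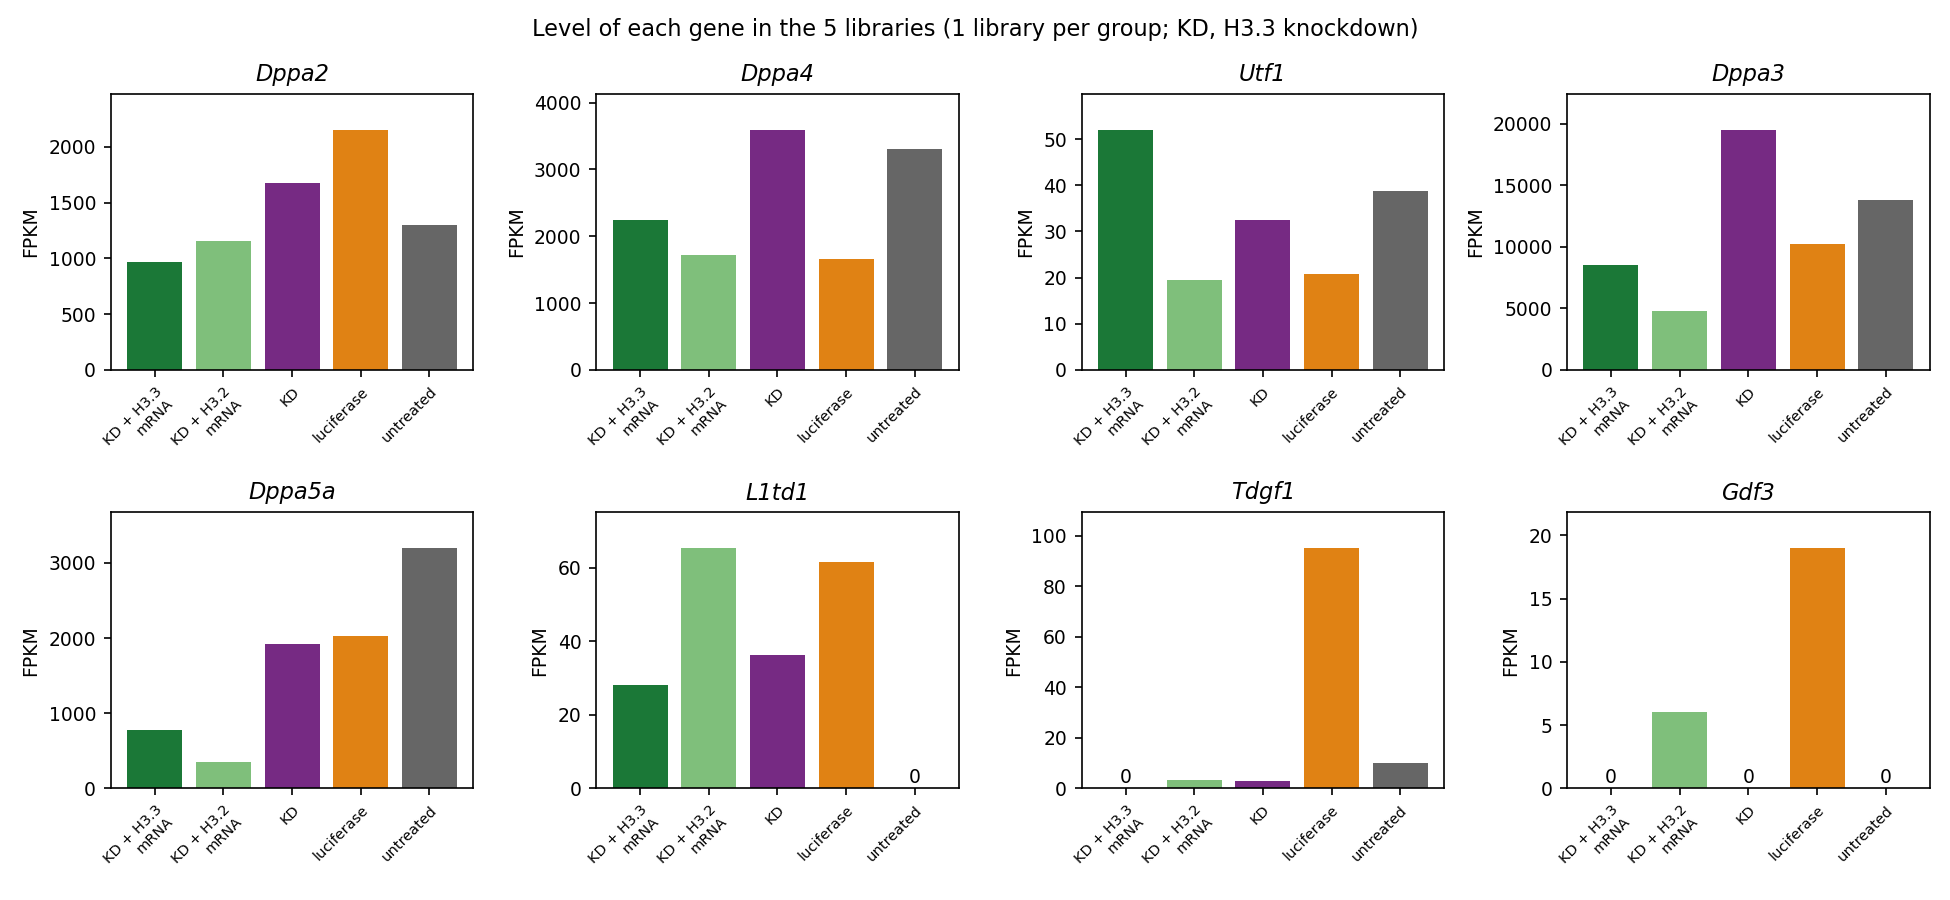
FPKM of the 8 genes in the H3.3 mRNA, H3.2 mRNA, knockdown, luciferase and untreated libraries, with 1 bar per library. Each gene has its own panel and its own linear scale, and 0 is written where a gene is listed at 0. Dppa3 lies between 4818 and 19535 FPKM in every library, whereas Gdf3 is above 0 in the H3.2 mRNA and luciferase libraries alone.

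Dppa3 had 8550 FPKM in the H3.3 mRNA library, 4818 FPKM in the H3.2 mRNA library and 19535 FPKM in the knockdown library, against 10257 FPKM in the luciferase library and 13794 FPKM in the untreated library. The knockdown library held the highest value and the libraries with added mRNA the lowest ones, and the knockdown libraries as a set overlapped the controls. The gene ranked 23rd, 28th and 6th in the H3.3 mRNA, H3.2 mRNA and knockdown libraries, and 24th and 9th in the luciferase and untreated libraries, among the 13144 genes. The lowest of the 5 levels was thus still at percentile 99.8 of its library. A near-copy, Dppa3-ps, matches its transcript at 98.2% identity over 54.1% of the length in the GENCODE annotation, so reads of the 2 could be traded. A second near-copy, Gm47576, matches at 91.1% identity over 54.0% of the length.

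Dppa5a varied most among the abundant genes of the set. Its level was 770 FPKM with H3.3 mRNA, 349 FPKM with H3.2 mRNA and 1921 FPKM in the knockdown library, against 2030 FPKM with luciferase and 3199 FPKM in untreated embryos. All 3 libraries with the knockdown lay below both controls, although the knockdown library missed the luciferase library by only 0.08 on the log2 scale. The highest value was 9.16 times the lowest, a wider spread than in 97.7% of the 658 genes above 0 in every library with a mean of at least 1000 FPKM, whose median spread was 2.82 times. In rank, Dppa5a stood at 862 and 1758 in the H3.3 mRNA and H3.2 mRNA libraries, at 358 in the knockdown library, and at 264 and 131 in the luciferase and untreated libraries. Dppa5a has 8 near-copies in GENCODE with at least 90% identity over at least 50% of its transcript. Of these, the match to a transcript of Pigp is the one whose gene has values here. It has 95.9% identity over 67.4% of the Dppa5a transcript. Pigp had 158, 292 and 425 FPKM in the H3.3 mRNA, H3.2 mRNA and knockdown libraries. In the luciferase and untreated libraries Pigp had 179 and 415 FPKM. This order of libraries was not that of Dppa5a. It cannot decide whether reads were traded, since the level is of the gene Pigp and not of the matching stretch. The sources used here do not say how reads were split between the copies, and the level of Dppa5a is uncertain to that extent.

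Dppa2 and Dppa4 lie 15982 bases apart on chromosome 16, and in mouse embryonic stem cells their proteins act upstream of Dux and other genes of the two-cell stage. Dppa2 had 969 FPKM with H3.3 mRNA, 1153 FPKM with H3.2 mRNA and 1674 FPKM in the knockdown, against 2155 FPKM with luciferase and 1302 FPKM in untreated embryos. Dppa4 had 2245 FPKM with H3.3 mRNA, 1725 FPKM with H3.2 mRNA and 3598 FPKM in the knockdown, against 1654 FPKM with luciferase and 3311 FPKM in untreated embryos. Neither gene separated the knockdown libraries from the controls, and both were steadier than most genes, with a highest value 2.22 and 2.18 times the lowest, where the median gene above 0 in every library had 4.58 times. The luciferase library held the highest Dppa2 and the lowest Dppa4. The level of Dppa4 divided by that of Dppa2 was 2.32 with H3.3 mRNA, 1.496 with H3.2 mRNA and 2.15 in the knockdown, against 0.768 with luciferase and 2.54 in untreated embryos. Only in the luciferase library was Dppa2 the higher of the pair. Dppa4 has 1 near-copy, Gm5501, at 96.8% identity over 56.5% of its transcript, so its level and this ratio are uncertain to that extent.

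Utf1 had 52.1 FPKM with H3.3 mRNA, 19.6 FPKM with H3.2 mRNA and 32.4 FPKM in the knockdown, against 20.7 FPKM with luciferase and 38.8 FPKM in untreated embryos. The groups overlapped, and both libraries with SCNT as source name were lower than the 3 others. L1td1 had 28.0 FPKM with H3.3 mRNA, 65.4 FPKM with H3.2 mRNA and 36.4 FPKM in the knockdown, against 61.4 FPKM with luciferase, and was listed at 0 in untreated embryos. Its 4 other values lie between 28.0 and 65.4 FPKM, so the 0 stands apart from the knockdown libraries and from the other control. The untreated library held 156 genes that were listed at 0 there and at 20 FPKM or more in each of the other 4 libraries, and L1td1 is one of them. The same count was 10 for the H3.3 mRNA library, 5 for the H3.2 mRNA library, 30 for the knockdown library and 10 for the luciferase library. How far this bears on L1td1 was not tested.

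Tdgf1, also called Cripto, was listed at 0 with H3.3 mRNA and had 3.11 FPKM with H3.2 mRNA and 2.99 FPKM in the knockdown, against 95.2 FPKM with luciferase and 9.86 FPKM in untreated embryos. All 3 libraries with the knockdown were below both controls, and the controls themselves differed by 9.65 times. Gdf3 was listed at 0 with H3.3 mRNA, had 6.02 FPKM with H3.2 mRNA, was listed at 0 in the knockdown, had 19.0 FPKM with luciferase and was listed at 0 in untreated embryos. Both genes of the Nodal branch were thus highest in the luciferase library. That library also had the lowest summed oocyte markers and the highest summed trophectoderm markers, at 22.5, 61.7 and 54.7 FPKM in the H3.3 mRNA, H3.2 mRNA and knockdown libraries, against 1298 and 477 FPKM in the luciferase and untreated libraries. In the luciferase library, 3 of 6 trophectoderm markers were above 0 (Gata3, Krt8 and Krt18). The part of these markers in the levels of Tdgf1 and Gdf3 was not tested.

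**Figure D2:**
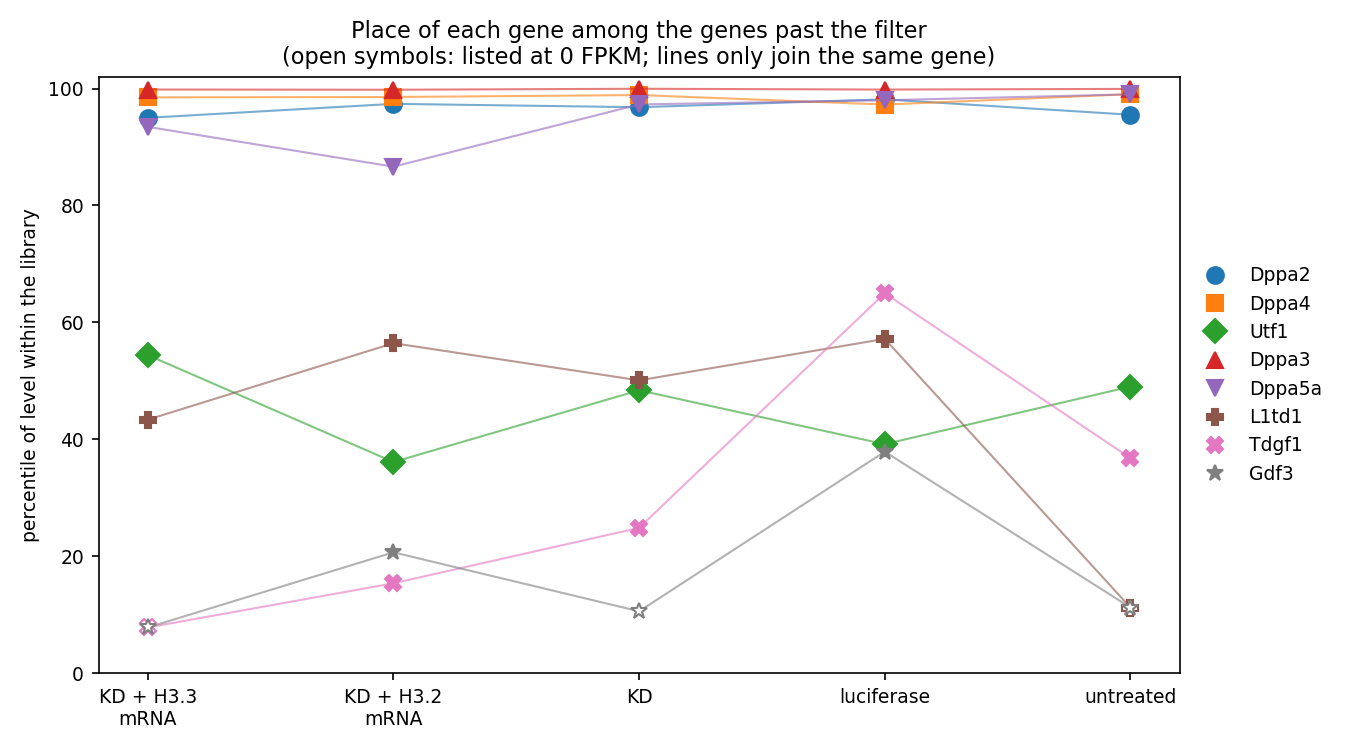
Percentile of each of the 8 genes among the 13144 genes of its own library, from the H3.3 mRNA library on the left to the untreated library on the right. Dppa3 is at percentile 99.8 or above throughout, Dppa5a lies between 86.6 and 99.0, and Tdgf1 reaches 65.0 in the luciferase library against 36.8 in the untreated library.

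The knockdown library was first set against the luciferase library. Tdgf1 fell, at 2.99 FPKM in the knockdown against 95.2 FPKM with luciferase, a log2 difference of -4.59, and Gdf3 was called lower as well, being listed at 0 in the knockdown. No gene of the set was called higher. Lower calls covered 18.9% of all genes in this comparison and higher calls 9.74% (28.6% in either direction), so 2 of 8 lower is close to the share of all genes. After quantile normalization the split of all calls was 1644 higher and 1949 lower, where the deposited values gave 1280 and 2478. The other 6 differences were 1.12 for Dppa4, 0.93 for Dppa3, 0.62 for Utf1, -0.08 for Dppa5a, -0.36 for Dppa2 and -0.74 for L1td1. With a pseudocount of 10 in place of 1, Gdf3 was no longer called here, nor with luciferase against untreated embryos or with H3.2 mRNA against the knockdown.

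The knockdown library against the untreated library, both with NT as source name, gave another picture. L1td1 was called higher, since it is listed at 0 in untreated embryos, and nothing was called lower. All genes were called higher in 16.8% and lower in 15.6% (32.5% in either direction), which makes 1 of 8 no more than the background. Tdgf1 had 2.99 FPKM in the knockdown and 9.86 FPKM in untreated embryos, a log2 difference of -1.44 that did not reach the call. Dppa5a differed by -0.74, Utf1 by -0.26, Dppa4 by 0.12, Dppa2 by 0.36 and Dppa3 by 0.50, and Gdf3 was listed at 0 in both. Under upper-quartile scaling Utf1 turned to 0.09 and under quantile normalization Dppa4 turned to -0.13. None of the 8 genes was 4-fold from each control in the same direction, which 4.98% of all genes were on the higher side and 6.35% on the lower side. The 2 comparisons share the knockdown library.

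**Figure D3:**
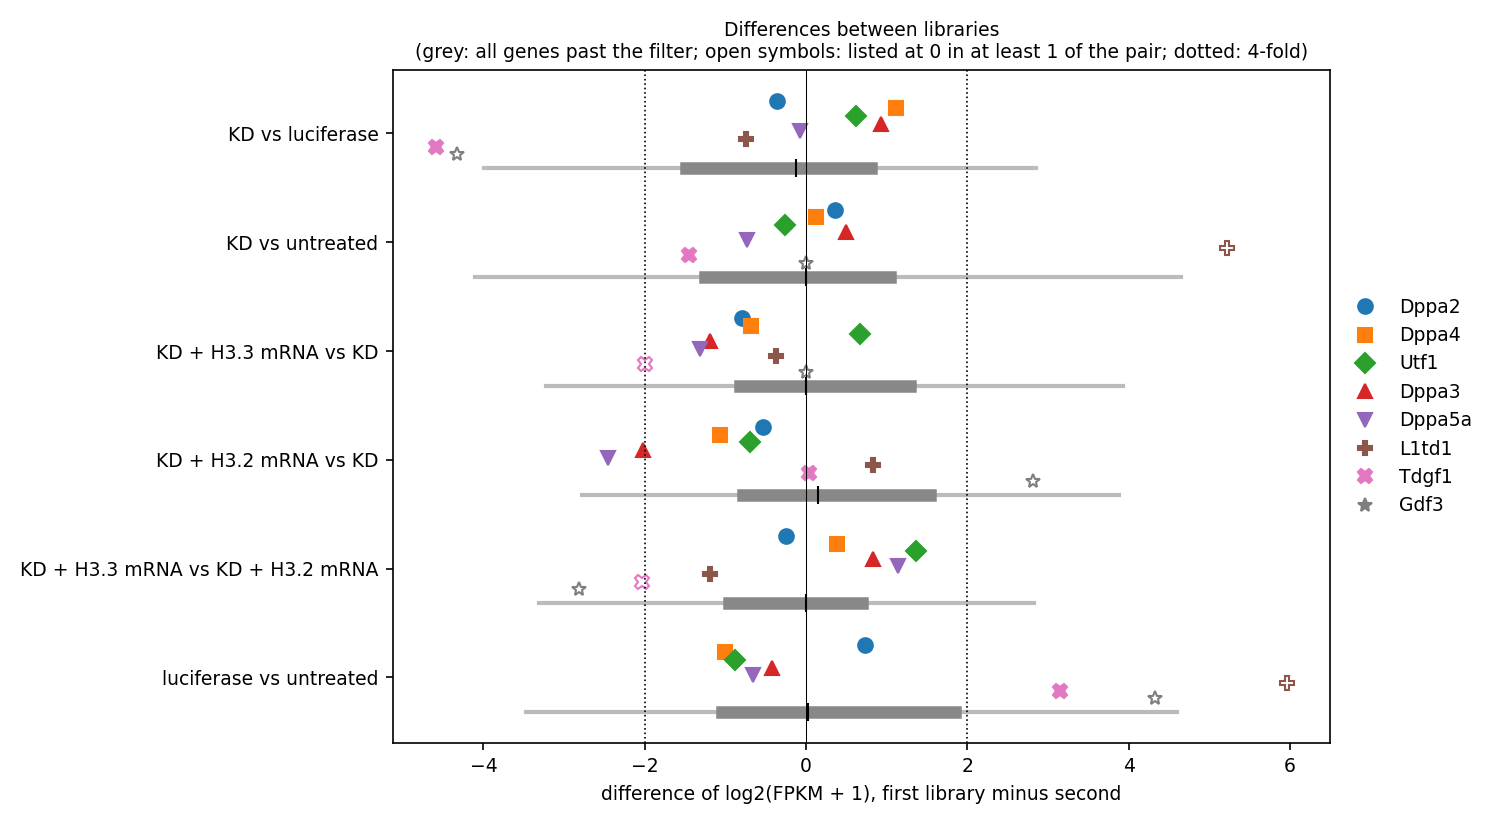
Difference in log2(FPKM + 1) of each of the 8 genes in 6 pairs of libraries, each the first library minus the second, with dotted lines at the 4-fold call, an open marker where a library of the pair is listed at 0, and grey bars for all 13144 genes (thick for percentiles 25 to 75, thin for 5 to 95, a tick at the median). Tdgf1 lies at -4.59 in the knockdown against luciferase and at -1.44 in the knockdown against untreated embryos, and Dppa3 and Dppa5a lie below -2 with H3.2 mRNA against the knockdown.

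The controls also differed from each other. L1td1 and Gdf3 were called higher with luciferase, both listed at 0 in untreated embryos, and Tdgf1 rose by 3.15 on the log2 scale. In this pair 36.9% of all genes were called, 23.5% higher with luciferase and 13.4% lower (3090 and 1759 genes, or 2408 and 2077 after quantile normalization). Dppa2 differed by 0.73, Dppa3 by -0.43, Dppa5a by -0.66, Utf1 by -0.88 and Dppa4 by -1.0, none of them called. For Tdgf1 and Gdf3, the distance between the knockdown and luciferase libraries therefore stands beside a distance between the 2 controls that also reached the call.

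Knockdown embryos given H3.3 mRNA were compared with the knockdown alone, both with NT as source name. No gene of the set was called, where 26.4% of all genes were (16.4% higher and 10.1% lower). Dppa5a differed by -1.32, Dppa3 by -1.19, Dppa2 by -0.79, Dppa4 by -0.68 and L1td1 by -0.37, and Utf1 by 0.67, so 6 of 8 were lower with H3.3 mRNA when Tdgf1 is counted. The median over the 658 abundant genes was -0.38 in the same comparison. After removal of the trend of the differences with coding length, Dppa5a and Dppa3 each differed by -0.41. Under that setting L1td1 differed by -1.15, Tdgf1 by -1.24 and Utf1 by 0.74, and Dppa2 and Dppa4 kept their values. Tdgf1, listed at 0 with H3.3 mRNA and at 2.99 FPKM in the knockdown, fell just short of the call, and it passed with a pseudocount of 0.1 and under the 3 rescalings. The level of Tdgf1 with H3.3 mRNA was not nearer to that of either control than the knockdown was.

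With H3.2 mRNA, 3 of the 8 genes were called against the knockdown. Dppa5a fell to 349 FPKM with H3.2 mRNA, against 1921 FPKM in the knockdown, a log2 difference of -2.46. Dppa3 fell to 4818 FPKM with H3.2 mRNA, against 19535 FPKM in the knockdown, a difference of -2.02 that is just past the call. Gdf3, at 6.02 FPKM with H3.2 mRNA, was called higher, being listed at 0 in the knockdown. Over all genes 28.6% were called, 19.5% higher and 9.11% lower (2558 and 1198 genes, or 1879 and 1551 after quantile normalization). The abundant genes as a class were lower with H3.2 mRNA, with a median of -0.75 over the 658 genes and 11.6% of them called lower, none higher. After quantile normalization Dppa5a differed by -1.97 and Dppa3 by -1.16, and after removal of the trend of the differences with coding length by -1.17 and -0.99, so neither gene was called under these 2 settings. Dppa5a and Dppa3 have short coding regions, of 354 and 450 bases, against 513 bases for Tdgf1, 888 to 1098 bases for Dppa4, Dppa2, Utf1 and Gdf3 and 2544 bases for L1td1. Tdgf1, nearly as short, differed by 0.04 in this comparison, at levels near 3 FPKM. Upper-quartile scaling put Dppa3 at -1.99. The 5 uncalled differences were -1.06 for Dppa4, -0.70 for Utf1, -0.54 for Dppa2, 0.04 for Tdgf1 and 0.83 for L1td1. The signs of Dppa2 and Tdgf1 turned under quantile normalization, to 0.19 and -1.58, that of Tdgf1 also under median-ratio scaling, to -0.01, and that of L1td1 with the length trend removed, to -0.22. The source names of the 2 libraries differ as well, SCNT for H3.2 mRNA and NT for the knockdown, and added mRNA and source name cannot be told apart here.

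The H3.3 mRNA library was then set against the H3.2 mRNA library, which also differ in source name. Tdgf1 and Gdf3 were called lower with H3.3 mRNA, both listed at 0 there and at 3.11 and 6.02 FPKM with H3.2 mRNA, and 21% of all genes were called, 12.6% lower and 8.38% higher. Both calls rest on low values. Neither held with a pseudocount of 10, and Tdgf1 was not called after quantile normalization, at -1.14. Utf1 differed by 1.37, Dppa5a by 1.14, Dppa3 by 0.83, Dppa4 by 0.38, Dppa2 by -0.25 and L1td1 by -1.20. Dppa4 turned to -0.04 under quantile normalization.

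Of the 4 pairs of an add-back library with a control, the pair with 1 source name (SCNT) was H3.2 mRNA against luciferase. There Dppa5a differed by -2.54 and Tdgf1 by -4.55, and both were called lower, 2 of 8 where 9.84% of all genes were called lower and 10.4% higher (20.3% in either direction). The pair of H3.3 mRNA with untreated embryos (NT) gave Dppa5a lower at -2.05, Tdgf1 lower from a listed 0, and L1td1 higher against a listed 0, where 13.8% of all genes were called lower and 20.6% higher (34.4% in either direction). The H3.3 mRNA library against luciferase gave Tdgf1 and Gdf3 lower, both from a listed 0, where 12.5% of all genes were called lower and 8.7% higher (21.2% in either direction). The H3.2 mRNA library against untreated embryos gave Dppa5a lower at -3.19, and L1td1 and Gdf3 higher against a listed 0, where 12.7% of all genes were called lower and 24.1% higher (36.8% in either direction). These pairs share libraries with those above, so their calls are not separate evidence.

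Dppa5a and Tdgf1 were the 2 genes of the set whose 3 values with the knockdown did not overlap the 2 controls, and both were lower with it. Groups of this size did not overlap for 16% of all genes, with 8.83% of all genes lower with the knockdown and 7.14% higher. Counts over 8 genes are too small to be set apart from these shares. Within a source name the order of these 2 genes follows from their lack of overlap and is no separate check. Among NT libraries, Dppa5a had 770 FPKM with H3.3 mRNA and 1921 FPKM in the knockdown, against 3199 FPKM in untreated embryos, and Tdgf1 was listed at 0 with H3.3 mRNA and had 2.99 FPKM in the knockdown, against 9.86 FPKM in untreated embryos. Among SCNT libraries, Dppa5a had 349 FPKM with H3.2 mRNA and 2030 FPKM with luciferase, and Tdgf1 had 3.11 FPKM with H3.2 mRNA and 95.2 FPKM with luciferase. This order in both source names was seen in 16.1% of all genes. Leaving out 1 library at a time can only keep or add genes without overlap, so Dppa5a and Tdgf1 stayed by construction. It gave 2 to 5 genes, with 4 without the knockdown library (Dppa2 and Dppa3 in addition) and 5 without the untreated library (Dppa2, Dppa4 and Gdf3 in addition). In those 2 cases 30.5% and 40.7% of all genes did not overlap.

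The split by source name separated 4 of the 8 genes, and 20.4% of all genes (11.9% higher and 8.48% lower in SCNT libraries). Dppa4 had 1725 and 1654 FPKM in the SCNT libraries (H3.2 mRNA and luciferase), against 2245, 3598 and 3311 FPKM in the NT libraries (H3.3 mRNA, knockdown and untreated). Utf1 was lower in the SCNT libraries as well, at 19.6 and 20.7 FPKM against 52.1, 32.4 and 38.8 FPKM. L1td1 and Gdf3 were higher in them, L1td1 at 65.4 and 61.4 FPKM against 28.0 FPKM, 36.4 FPKM and a listed 0, and Gdf3 at 6.02 and 19.0 FPKM against a listed 0 in all 3 NT libraries. The sources used here do not say whether the source names mark separate experiments.

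By the root mean square difference of their centred log2(FPKM + 1) profiles over the 5 libraries, Dppa4 was closest to Dppa3 (0.40) and to Utf1 (0.45) within the set. Dppa2 and Dppa4, the neighbours, were 0.63 apart, with 15.7% of all genes nearer to Dppa2 than Dppa4 was. Over all genes, the nearest profiles to Dppa3 were those of Rps10, Rpl12 and Cd63, with 668 genes within 0.5. Nearest to Dppa2 were Pfn1, Get4 and Ran, nearest to Dppa4 were Dffb, Nudt21 and Lman2, and nearest to Utf1 were Ddr1, Rtcd1 and Cdc42ep2. Such flat or common profiles had many near genes, 916, 1140 and 646 within 0.5 for Dppa2, Dppa4 and Utf1. Fewer genes were near Dppa5a (37, led by Tmbim4, Creg1 and Cotl1), L1td1 (47, led by Zfp12, Shq1 and Aifm3) and Gdf3 (69, led by Zbtb32, Lyn and Tmem54). Tdgf1 had no gene within 0.5. Its 3 nearest were Pbld1 (0.66), the knockdown target H3f3a (0.66) and Tinagl1 (0.73), and with 5 libraries this is a description of order only. H3f3a had 95.5, 129 and 128 FPKM in the H3.3 mRNA, H3.2 mRNA and knockdown libraries. It had 3503 and 783 FPKM in the luciferase and untreated libraries, so luciferase was the higher control for both Tdgf1 and H3f3a. The other H3.3 gene, H3f3b, had the opposite order, at 2230 FPKM with luciferase and 4484 FPKM in untreated embryos. The sum of the 2 H3.3 genes was 5734 and 5266 FPKM in these controls, so Tdgf1 did not follow the summed level there.

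Tdgf1 and Gdf3 belong to a pathway in which ligands such as Nodal bind activin receptors together with the co-receptor and act through Smad2, Smad3 and Smad4. Of 26 genes listed for it, with Tdgf1 and Gdf3 among them, 20 passed the filter. In the knockdown against luciferase 1 of these 20 was called higher and 9 lower, with a median difference of -1.46 where the median of all genes was -0.12 and 9.74% of them were called higher and 18.9% lower. In the knockdown against untreated embryos 2 were higher and 7 lower, with a median of -0.94 beside 0 for all genes, of which 16.8% were called higher and 15.6% lower. With H3.3 mRNA against the knockdown 7 were higher and none lower, where 16.4% of all genes were higher and 10.1% lower. With H3.2 mRNA against the knockdown 9 were higher and none lower, where 19.5% of all genes were higher and 9.11% lower. These 2 comparisons share the knockdown library with the first 2. Most of the lower calls in the knockdown and of the higher calls with added mRNA rest on a listed 0 in the knockdown library, which may be a failed estimate. The lower calls that do not are Tdgf1 and Acvr2a against luciferase and Drap1 against untreated embryos. The higher calls that do not are Acvr2a with H3.3 mRNA, and Acvr2a and Skil with H3.2 mRNA. Luciferase against untreated embryos gave 5 higher and 4 lower, where 23.5% of all genes were higher and 13.4% lower.

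The receptor gene Acvr2b had 49.6 FPKM with H3.3 mRNA and 48.9 FPKM with H3.2 mRNA, was listed at 0 in the knockdown, and had 27.5 FPKM with luciferase and 69.6 FPKM in untreated embryos. The knockdown library was the only one in which it was listed at 0. Smad7, an inhibitor of the pathway, had 14.8 FPKM with H3.3 mRNA and 16.1 FPKM with H3.2 mRNA, was listed at 0 in the knockdown, and had 8.46 FPKM with luciferase and 27.2 FPKM in untreated embryos. Pcsk6, a convertase that cuts Nodal precursors, had 7.80 FPKM with H3.3 mRNA, 0.97 FPKM with H3.2 mRNA and a listed 0 in the knockdown, against 116 FPKM with luciferase and 60.1 FPKM in untreated embryos. Like Tdgf1, it was lower in all 3 libraries with the knockdown than in either control. Foxh1, a DNA-binding partner of Smad2, ran the other way, with 29.0 FPKM with H3.3 mRNA, 48.2 FPKM with H3.2 mRNA and 76.0 FPKM in the knockdown, against a listed 0 with luciferase and 8.0 FPKM in untreated embryos. The most abundant genes of the list were Drap1 (63.5, 193 and 139 FPKM in the H3.3 mRNA, H3.2 mRNA and knockdown libraries, against 137 and 1214 FPKM in the luciferase and untreated libraries), Ski, Smad4 and Smad2. Ski lay between 212 and 326 FPKM in all 5. Smad4 lay between 61.2 and 243 FPKM and Smad2 between 54.5 and 123 FPKM. The Nodal gene itself was above 0 with H3.2 mRNA, at 7.45 FPKM, and in untreated embryos, at 35.2 FPKM. The luciferase library, with the highest Tdgf1, had Nodal listed at 0.

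**Figure D4:**
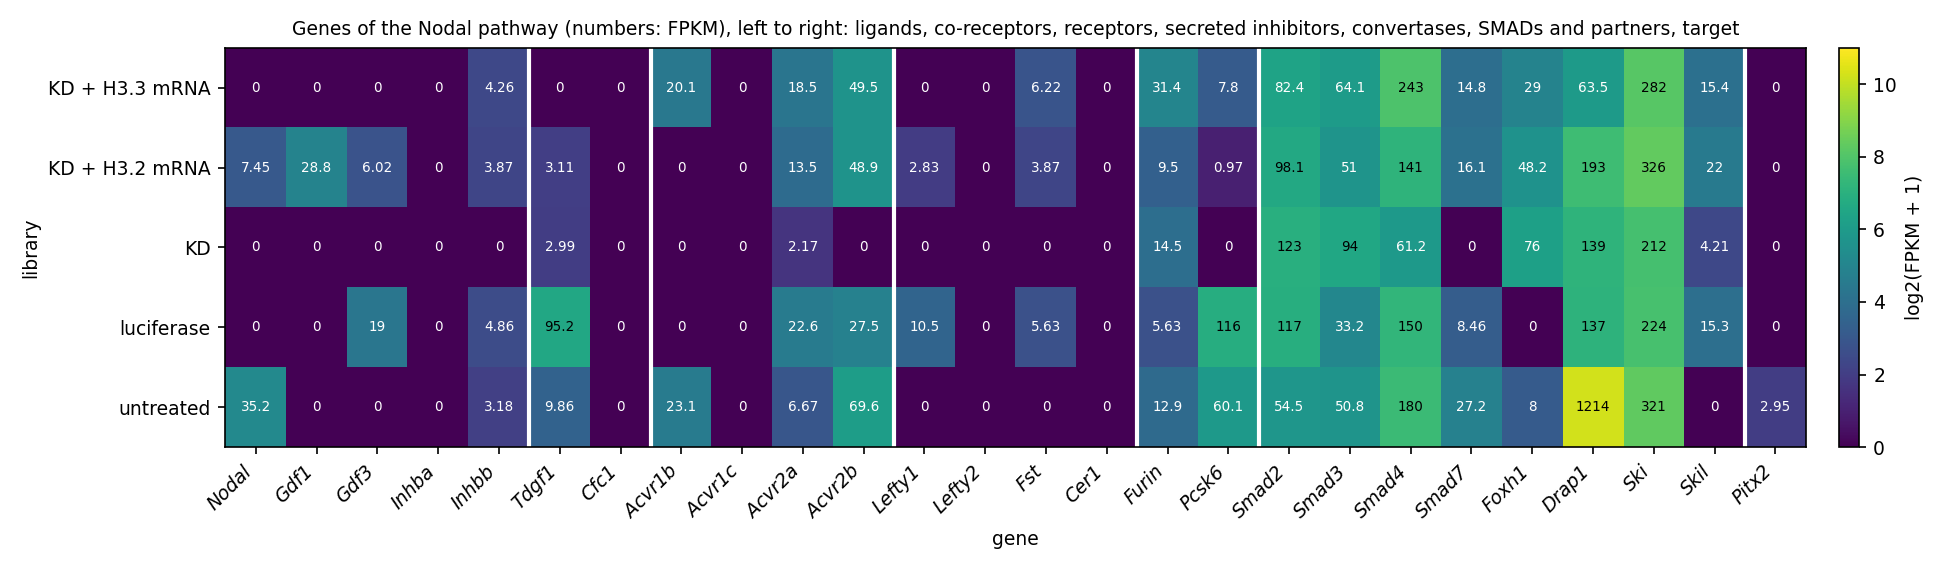
Levels of 26 genes of the Nodal pathway in FPKM (numbers) and log2(FPKM + 1) (colour), with the libraries from H3.3 mRNA at the top to untreated at the bottom and white lines between roles. Acvr2b and Smad7 are listed at 0 in the knockdown library alone, and Tdgf1 and Pcsk6 are lower in the 3 knockdown libraries than in the controls.

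Most genes beside the set on the chromosomes had far lower levels than the Dppa genes. Gdf3, Dppa3, Nanog and Slc2a3 lie in this order on chromosome 6, with Dppa3 16337 bases from Gdf3 and 77218 bases from Nanog (RefSeq, GRCm38.p6). Nanog, a core pluripotency factor, had 9.59 FPKM with H3.3 mRNA and 0.99 FPKM with H3.2 mRNA and was listed at 0 in the knockdown, against 52.1 FPKM with luciferase and 21.8 FPKM in untreated embryos. The library with the highest Dppa3 is the one in which Nanog and Gdf3 were both listed at 0. Slc2a3, a glucose transporter gene, had 83.1, 37.7 and 65.0 FPKM in the H3.3 mRNA, H3.2 mRNA and knockdown libraries, against 449 FPKM with luciferase and 63.3 FPKM in untreated embryos. Luciferase embryos had the highest level of Gdf3, Nanog and Slc2a3 alike. On the other side of Gdf3, Apobec1 was at 10.4 FPKM or less. Beyond Slc2a3, Foxj2 had 56.7 FPKM in untreated embryos and at most 6.74 FPKM in the others.

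Next to Dppa2, Morc1 was listed at 0 in 4 libraries and had 6.16 FPKM with luciferase, so the high levels stop at the pair Dppa4 and Dppa2. On one side of Dppa5a on chromosome 9, past Gsta2, lie Omt2a and Omt2b, a pair of genes of similar level that were picked here by position. Omt2a had 694, 305 and 753 FPKM in the H3.3 mRNA, H3.2 mRNA and knockdown libraries, against 252 and 2813 FPKM in the luciferase and untreated libraries. The luciferase library was thus the lowest for Omt2a and among the higher ones for Dppa5a. On the other side lies Ooep, an oocyte gene of the subcortical maternal complex, with 27.0 FPKM with H3.3 mRNA, 8.20 FPKM with H3.2 mRNA and 80.4 FPKM in the knockdown, against 19.8 FPKM with luciferase and 146 FPKM in untreated embryos. Khdc3, another gene of that complex on chromosome 9, had 21.1, 49.2 and 68.9 FPKM in the H3.3 mRNA, H3.2 mRNA and knockdown libraries, against 233 and 207 FPKM in the luciferase and untreated libraries. Khdc3 and Dppa5a were both lower in the 3 knockdown libraries than in the controls, whereas Ooep had its lower control value, 19.8 FPKM, below 2 of the knockdown libraries. Beside L1td1 on chromosome 4, Patj had 35.7, 35.6 and 36.4 FPKM in the H3.3 mRNA, H3.2 mRNA and knockdown libraries, against 50.2 and 2.24 FPKM in the luciferase and untreated libraries. Kank4, on the other side, had 247, 244 and 120 FPKM in the H3.3 mRNA, H3.2 mRNA and knockdown libraries, against 276 and 21.3 FPKM in the luciferase and untreated libraries. Tm2d1, the next gene beyond Patj, had 29.1, 43.5 and 189 FPKM in the H3.3 mRNA, H3.2 mRNA and knockdown libraries and 53.1 FPKM with luciferase, and was listed at 0 in untreated embryos. These 3 neighbours, like L1td1, were thus lowest in the untreated library, whereas Usp1, the second gene past L1td1 on the side of Kank4, was highest there, at 775 FPKM. Around Tdgf1, the 6 nearest genes were at 16.7 FPKM or less in every library, and Lrrc2, next to it, was at 2.77 FPKM or less. Next to Utf1, Kndc1 had 5.30 FPKM with H3.3 mRNA, and the other 4 libraries list it at 0. Khdc1a, a related gene that lies on chromosome 1 in this assembly, stayed between 219 and 377 FPKM.

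**Figure D5:**
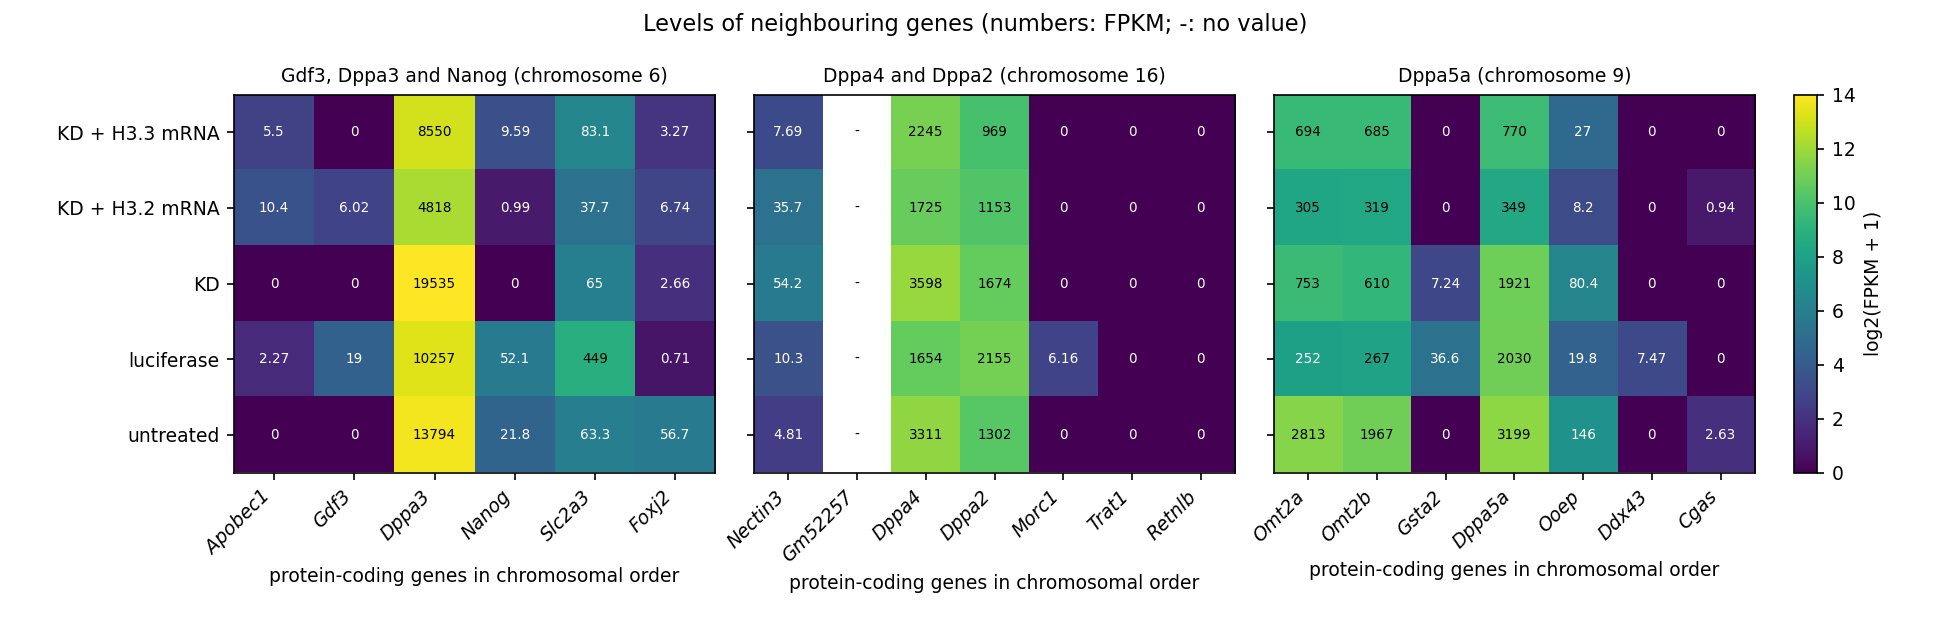
Levels of the protein-coding genes around Gdf3 and Dppa3, around Dppa4 and Dppa2, and around Dppa5a, in chromosomal order, in FPKM (numbers) and log2(FPKM + 1) (colour), with the H3.3 mRNA library at the top and the untreated library at the bottom. Dppa3, Dppa2 and Dppa4 are high in all 5 libraries beside neighbours such as Morc1 that are at or near 0.

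Transcription factors of pluripotency were compared as the company in which the 8 genes are usually found. Of 16 listed, 14 passed the filter. None was called higher and 7 lower in the knockdown against luciferase (median -1.92, beside -0.12 for all genes, of which 9.74% were higher and 18.9% lower). In the knockdown against untreated embryos none was called higher and 4 lower (median -1.21, beside 0 for all genes, of which 16.8% were higher and 15.6% lower). With H3.3 mRNA against the knockdown 7 were higher and none lower, and with H3.2 mRNA 3 were higher and 1 lower, where 16.4% and 19.5% of all genes were higher and 10.1% and 9.11% lower. Markers of other cells moved in the knockdown against luciferase too, since 7 of 12 oocyte markers past the filter were called higher, 3 of 3 trophectoderm markers lower and 2 of 2 primitive endoderm markers lower. Of 4 primitive endoderm markers listed, Sox17 was at 0 in all 5 libraries and Pdgfra was above 0 with luciferase alone, at 4.23 FPKM. Against untreated embryos the oocyte markers gave 1 higher and 3 lower, the trophectoderm markers none higher and 2 lower, and no primitive endoderm marker was called. Their part in the counts of the factors was not tested. Of the factors called lower against luciferase, Nanog, Esrrb, Prdm14 and Gbx2 were listed at 0 in the knockdown. Tfcp2l1 and Tbx3 were near the pseudocount of 1 in the knockdown, at 0.65 and 1.34 FPKM. With luciferase these 2 had 60.4 and 120 FPKM. Klf5 was well above 0 in both libraries, at 40.95 FPKM in the knockdown and 181.5 FPKM with luciferase. Pou5f1, which encodes Oct4, had 391, 157 and 479 FPKM in the H3.3 mRNA, H3.2 mRNA and knockdown libraries, against 849 and 1250 FPKM in the luciferase and untreated libraries. The order of the 5 libraries was the same as for Dppa5a, with H3.2 mRNA lowest and untreated embryos highest. Sall4 lay between 130 and 524 FPKM, Zfp42 between 71.0 and 328 FPKM and Nr5a2 between 115 and 211 FPKM. Tbx3 had 66.9, 3.09 and 1.34 FPKM in the H3.3 mRNA, H3.2 mRNA and knockdown libraries, against 120 and 72.7 FPKM in the luciferase and untreated libraries. Prdm14 had 24.8 FPKM with H3.3 mRNA and was listed at 0 with H3.2 mRNA and in the knockdown, against 12.9 and 40.3 FPKM in the luciferase and untreated libraries. Gbx2 was listed at 0 in the knockdown and lay between 3.14 and 12.6 FPKM elsewhere. In Tbx3 and Prdm14 the H3.3 mRNA library was near the controls, whereas Tdgf1 was listed at 0 in that library.

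Of 17 listed genes of the two-cell stage, among them targets of Dppa2 and Dppa4 in stem cells, 14 had values and 8 passed the filter. Dux was listed at 0 in all 5 libraries. In the knockdown 2 were called higher and 1 lower against luciferase, where 9.74% of all genes were higher and 18.9% lower. Against untreated embryos 3 were higher and 3 lower, where 16.8% of all genes were higher and 15.6% lower, and counts over 8 genes are too small to be set apart from these shares. Zfp352 had 137, 118 and 15.0 FPKM in the H3.3 mRNA, H3.2 mRNA and knockdown libraries, against 1.37 and 396 FPKM in the luciferase and untreated libraries, a far wider range than that of Dppa2 or Dppa4. Sp110, the most abundant gene of the list, had 9190, 2301 and 2610 FPKM in the H3.3 mRNA, H3.2 mRNA and knockdown libraries, against 3736 and 2674 FPKM in the luciferase and untreated libraries. Zscan4d had 1.81 FPKM with H3.3 mRNA, was listed at 0 with H3.2 mRNA and had 0.06 FPKM in the knockdown, against 6.59 and 3.75 FPKM in the luciferase and untreated libraries, and its family shares near-identical copies, so these values are uncertain. Tdpoz4 lay between 5.24 and 129 FPKM, and Usp17lc reached 237 FPKM with H3.2 mRNA and was listed at 0 in untreated embryos.

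Among the genes of DNA methylation, with which Dppa3 is known to act, 11 were listed and all passed the filter. In the knockdown none was called higher and 2 lower against luciferase, where 9.74% of all genes were higher and 18.9% lower, and 2 higher and 1 lower against untreated embryos, where 16.8% were higher and 15.6% lower. These counts of calls are close to the shares of all genes. Called or not, 10 of the 11 were lower against luciferase, with a median of -1.01 beside -0.12 for all genes. Against untreated embryos 6 were lower and 4 higher, with a median of -0.29 beside 0. The H3.3 mRNA library had 9 of the 11 above the knockdown (median 1.08, beside 0 for all genes). For the H3.2 mRNA library 9 were above the knockdown too (median 0.88, beside 0.15). All 4 pairs share the knockdown library, and these directions were not tested. Dnmt3l, a cofactor of the de novo methyltransferases, had 110, 122 and 953 FPKM in the H3.3 mRNA, H3.2 mRNA and knockdown libraries, against 407 and 505 FPKM in the luciferase and untreated libraries. Like Dppa3, it was highest in the knockdown library and lowest in the libraries with added mRNA. Trim28, a corepressor that keeps imprints methylated, had 2040, 1602 and 868 FPKM in the H3.3 mRNA, H3.2 mRNA and knockdown libraries, against 2089 and 1135 FPKM in the luciferase and untreated libraries. Dnmt1, the maintenance methyltransferase, had 159, 240 and 74.4 FPKM in the H3.3 mRNA, H3.2 mRNA and knockdown libraries, against 148 and 90.9 FPKM in the luciferase and untreated libraries. Both were lowest in the knockdown library, where Dppa3 was highest. Dnmt3a lay between 44.5 and 88.6 FPKM in all 5.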

How the data were processed

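The authors aligned single reads of 51 bases with TopHat and estimated FPKM with Cufflinks on mm9, per the submitters' processing notes and the labels' protocols, which give no versions. The deposited files list 1 FPKM value for each of 22026 symbols in each library. FPKM divides by transcript length and by library total, so abundant genes that move shift all others, and near-identical copies can trade reads. Depth is unknown, and no interval is given. Groups came from titles and treatment tags. Differences were taken in log2(FPKM + 1), a scale that understates changes of low genes, over 13144 genes whose mean was 1 FPKM or more, with a call at 4-fold. The calculations were made in Python 3.11.15 with pandas 2.3.3 and numpy 2.4.6 and tested on simulated data. Near-copies were found with blastn 2.17.0 among GENCODE M21 transcripts (at least 90% identity over at least 50% of the transcript), and coding length from GENCODE covered 87.1% of the filtered genes.

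The 8 genes, the gene lists and the comparisons were chosen with earlier results of these data known, and the promoter motifs after the sequences were read. The text names the 8 genes, most of their nearest neighbours on the chromosome, the 3 nearest profiles of each, the H3.3 genes and, of each list, the 4 highest in mean and up to 4 of those 4-fold from each control, with a few others (Nodal, Dux) chosen after their values were seen. Khdc3, Usp17lc and Tfcp2l1 were matched by the older symbols 2410004A20Rik, Usp17l5 and Tcfcp2l1. Alternatives were other pseudocounts, filters, folds and scalings, a length correction and leaving out 1 library. Of the neighbour list, 1 gene is not reported here.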

Additional observations from a re-analysis of the deposited data

How the results depend on the processing

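Alternatives of 9 kinds were applied to the 6 main pairs of libraries, and none to the 4 pairs of an add-back library with a control. Of 288 alternative values of single genes, without those under other filters, which cannot move one gene's difference, 266 kept their direction and their side of the 4-fold call, 11 lost the call, 4 gained it (Tdgf1 with H3.3 mRNA against the knockdown each time) and 7 uncalled values changed sign. The count of genes called in the knockdown against luciferase, 2, became 1 with a pseudocount of 10, where 9.74% of all genes were called in place of 28.6%. It became 3 at a 2-fold call (54.1% of all genes). In the knockdown against untreated embryos 1 became 2 at a 2-fold call (54.7% of all genes). With H3.3 mRNA against the knockdown 0 became 1 with a pseudocount of 0.1 and under upper-quartile scaling, quantile normalization and median-ratio scaling (25.2% to 29.2% of all genes), and 3 at a 2-fold call (51.1%). With H3.2 mRNA against the knockdown 3 became 1 after quantile normalization (26.1% of all genes) and 1 after removal of the length trend (22.7%), which rests on fewer genes. That count became 2 with a pseudocount of 10 (9.32%) and under upper-quartile scaling (28.9%), and 4 at a 2-fold call (54.9%). With H3.3 mRNA against H3.2 mRNA 2 became 0 with a pseudocount of 10 (4.28% of all genes), 1 after quantile normalization (20.5%) and 5 at a 2-fold call (43.0%). For luciferase against untreated embryos 3 became 2 with a pseudocount of 10 (15.4%) and 4 at a 2-fold call (60.0%). Leaving out 1 library at a time, an alternative added after seeing the data, can only keep or add genes without overlap. It gave 2 to 5 genes between knockdown libraries and controls, with 25.4% to 52.2% of all genes, and 4 to 6 between source names, with 32.5% to 41.7% of all genes. Beyond the construction of each alternative the cause was not tested. Upper-quartile scaling moved the median of all genes for luciferase against untreated embryos to 0.36, and median-ratio scaling to 0.13, where the deposited values gave 0.02. No paired analysis was possible because each group has 1 library. With no depth in the files, low values such as those of Gdf3 and Tdgf1 cannot be given a counting error.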

Other observations

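Genes of RNA binding and germ cells, known companions of Dppa5a and L1td1, were called in both directions. The counts of calls are too small to be set apart from the shares of all genes. Of 14 listed, 12 passed the filter, and in the knockdown 2 were called higher and 3 lower against luciferase, where 9.74% of all genes were higher and 18.9% lower, and 1 higher and 3 lower against untreated embryos, where 16.8% were higher and 15.6% lower. Called or not, 8 of the 12 were lower against luciferase, with a median of -0.33 beside -0.12 for all genes. Against untreated embryos 10 of the 12 were lower, with a median of -1.01 beside 0. Alpl, the alkaline phosphatase of pluripotent and germ cells, had 13.8 FPKM with H3.3 mRNA and 31.8 FPKM with H3.2 mRNA and was listed at 0 in the knockdown, against 59.7 FPKM with luciferase and 148 FPKM in untreated embryos. Tex19.1 had 509, 731 and 822 FPKM in the H3.3 mRNA, H3.2 mRNA and knockdown libraries, against 1043 and 1567 FPKM in the luciferase and untreated libraries. Both were lower in the 3 knockdown libraries than in the controls, as Dppa5a was. Tcl1 and Sycp3 had their lowest level with luciferase, Tcl1 at 125, 372 and 726 FPKM in the H3.3 mRNA, H3.2 mRNA and knockdown libraries, against 65.6 and 726 FPKM in the luciferase and untreated libraries. Sycp3, a protein of the meiotic chromosome axis, had 314, 109 and 268 FPKM in the H3.3 mRNA, H3.2 mRNA and knockdown libraries, against 10.1 and 414 FPKM in the luciferase and untreated libraries. Fgf4 had 171, 151 and 242 FPKM in the H3.3 mRNA, H3.2 mRNA and knockdown libraries, against 61.6 and 147 FPKM in the luciferase and untreated libraries.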
